A study of Saccharomyces cerevisiae with 4 samples.

Results

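A set of 10 yeast genes that build, crosslink and trim the glucan and chitin of the cell wall was followed into and out of polysomes during the unfolded protein response, the programme that cells start when proteins misfold in the endoplasmic reticulum (ER). They are FKS1, GSC2, CHS3, CRH1, UTR2, GAS1, GAS5, EXG1, EXG2 and BGL2. Members were chosen by name, as the probe sets assigned to 1 of these symbols alone. That gave 23 probe sets of the 9335 on the array. All 10 genes had at least 1 probe set above the intensity floor defined below, among 3923 such genes of 5656, and 17 of the 23 probe sets lay above it.

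Saccharomyces cerevisiae strain BY4741, a MATa strain whose label lists his3Δ1, leu2Δ0, met5Δ0 and ura3Δ0, was grown in rich glucose medium at 30 °C to an OD600 of 0.5. The 4 groups were DTT-treated cells, sub-polysomal RNA; control cells, sub-polysomal RNA; DTT-treated cells, polysomal RNA; and control cells, polysomal RNA. The treatment was 2 mM dithiothreitol (DTT), a reductant that blocks disulphide bonding in the ER, for 1 h, and control cells received water; both were then stopped with cycloheximide, which freezes ribosomes on mRNA. RNA of 3 extracts was pooled for each group and put on 1 Affymetrix array, so n = 1 per group and no difference could be tested against replicates. Lysis and gradient buffers held 0.5 mM DTT for every group. LEU2, URA3 and MET17 were below the floor on all 4 arrays, whereas MET5, which the label gives as deleted, was above it on all 4, as was HIS3.

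The yeast wall is a mesh of beta-1,3-glucan chains made at the plasma membrane by a glucan synthase whose catalytic subunit is Fks1 or Gsc2, with chitin added by chitin synthases. Glucan-remodelling enzymes travel through the ER and Golgi to the cell surface, where they elongate, branch, cut and join the chains. In glucose-grown cells FKS1 is known as the main synthase gene, while GSC2 is known to be switched on by stress through calcineurin and the cell wall integrity kinase Slt2.

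Values are deposited intensities, scaled by the authors to a common trimmed mean, and log2 ratios are between arrays that were each centred on the median of their measured probe sets. A probe set counted as measured when it lay above the 40th percentile of every array. That floor was at an intensity of 22.6 for DTT sub-polysomal, 28.2 for control sub-polysomal, 15.9 for DTT polysomal and 17.6 for control polysomal RNA. As a technical error, the SD among probe sets that read 1 gene was pooled over 161 genes. On the log2 scale it was 0.45 for the sub-polysomal change with DTT, 0.41 for the polysomal change, 0.32 and 0.41 for the ratio of fractions with DTT and in control cells, and 0.43 for the difference of those ratios. It does not cover differences between cultures or hybridisations. The control sub-polysomal array had the lowest rank correlation with the others, 0.885 to 0.920 in its pairs. The ratio of the 3' to the 5' probe set of the actin gene ACT1 was 1.91 on the DTT and 2.49 on the control sub-polysomal array, and 1.48 and 1.52 on the DTT and control polysomal arrays. That array enters neither the polysomal DTT effect nor the ratio of fractions under DTT; it enters every other ratio below, where the part of RNA quality was not tested.

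The 10 transcripts did not move as a block with DTT. GSC2 and CRH1 were more than 2-fold higher in both RNA fractions, and CHS3 was nearly 2-fold higher in sub-polysomal RNA. UTR2 and EXG1 were about 2-fold lower in both fractions. GAS5 and BGL2 stayed close to their control values, as did FKS1 in polysomal RNA. In polysomal RNA 2 of 10 members were at least 2-fold higher and 1 was at least 2-fold lower, where 4.33% and 7.04% of the 3923 measured genes were past those limits. In sub-polysomal RNA 2 members were 2-fold higher and 2 lower, against 5.68% and 11.1% of all measured genes. The median of the members was 0.0045 (log2) in polysomal and -0.18 in sub-polysomal RNA, each of either sign depending on the setting, and the median of all measured genes was -0.10 and -0.20. The 2 members higher in both fractions (2.83% of all genes were 2-fold higher in both) were GSC2 and CRH1, and the member lower in both (4.61% of all genes) was UTR2. The members were chosen with earlier results of these data known, so counts beside these shares are not a test. The intensities average over whole cultures, so fewer cells that express a gene and less of its RNA per cell cannot be told apart.

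**Figure D1:**
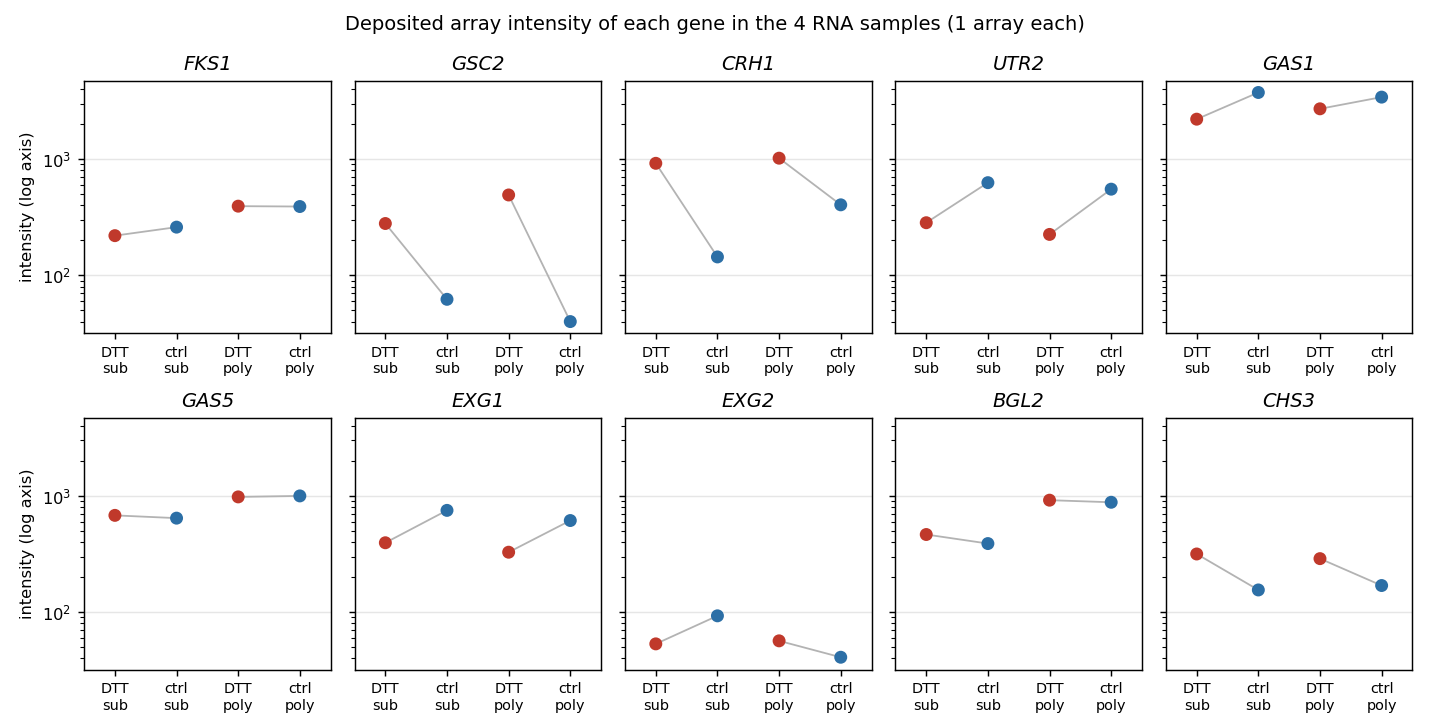
Deposited intensity on a log axis for each of the 10 genes in DTT-treated (red) and control (blue) RNA, sub-polysomal at left and polysomal at right, 1 array per point. FKS1 and GSC2 are geometric means of their 6 and 3 measured probe sets, and brightness should not be compared between genes; GSC2 and CRH1 have the steepest steps between DTT and control.

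The pair of glucan synthase genes behaved differently. GSC2 was read by 3 measured probe sets. Probe set 4959_at, the only one of plain kind, had an intensity of 462.9 in DTT and 83.7 in control sub-polysomal RNA, and of 605.9 in DTT and 48 in control polysomal RNA. Both DTT values lay far above both control values. Over the 3 probe sets GSC2 was 4.18-fold higher with DTT in sub-polysomal RNA (log2 2.06, SD between probe sets 0.53) and 12.0-fold higher in polysomal RNA (3.59, SD 0.33). The polysomal change ranked number 1 from the top among 3923 genes and the sub-polysomal change number 30.

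The control values of GSC2 were dim, with probe set 2210_s_at only 1.39 times above the floor in control sub-polysomal RNA, so its fold changes rest on low denominators. Setting no floor, which brings in the dim probe sets, gave a polysomal change of 3.04 in place of 3.59. Across all 8 alternative settings it ranged from 3.04 to 3.83 in polysomal and from 1.90 to 2.37 in sub-polysomal RNA. Another 4 probe sets of GSC2 were left out for falling below the floor. Of these, 2209_s_at read 144.7 in DTT and 19.2 in control polysomal RNA, a 7.38-fold difference, and was at least 1.96-fold higher in DTT sub-polysomal RNA, counting the control array at its floor. In polysomal RNA 2207_s_at was at least 3.00-fold and 2208_s_at at least 2.51-fold higher with DTT by the same count, while 2206_g_at was under the floor on all 4 arrays. A probe set shared by GSC2 and its neighbour IMO32 read 33.8 in DTT and 49 in control sub-polysomal RNA, and 30.1 in DTT and 17 in control polysomal RNA.

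FKS1, the synthase gene of growing cells, had 6 measured probe sets and a geometric mean intensity of 219.8 in DTT and 260.1 in control sub-polysomal RNA. In polysomal RNA it was 394.1 with DTT and 391.3 in control. The 4 values order by fraction, both polysomal above both sub-polysomal, and not by treatment. Its log2 change with DTT was -0.020 in polysomal RNA (SD between probe sets 0.26), a sign that turned under 5 of the 8 alternatives, and -0.35 in sub-polysomal RNA (SD 0.31), where the plain probe set 9966_at alone gave -0.88. GSC2 exceeded FKS1 in its change by 2.41 (log2) in sub-polysomal and 3.61 in polysomal RNA.

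The 2 genes are close relatives, and most of their probe sets carry the suffix s, by which the manufacturer marks sets that may match more than 1 transcript. The ranges of their measured probe sets did not meet. In sub-polysomal RNA FKS1 lay between -0.88 and 0.048 and GSC2 between 1.45 and 2.37. In polysomal RNA they spanned -0.29 to 0.41 and 3.24 to 3.89. Among the measured FKS1 sets, the plain 9966_at was lowest in both fractions, at -0.88 and -0.29. Whether the other FKS1 sets also read GSC2 was not tested.

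**Figure D2:**
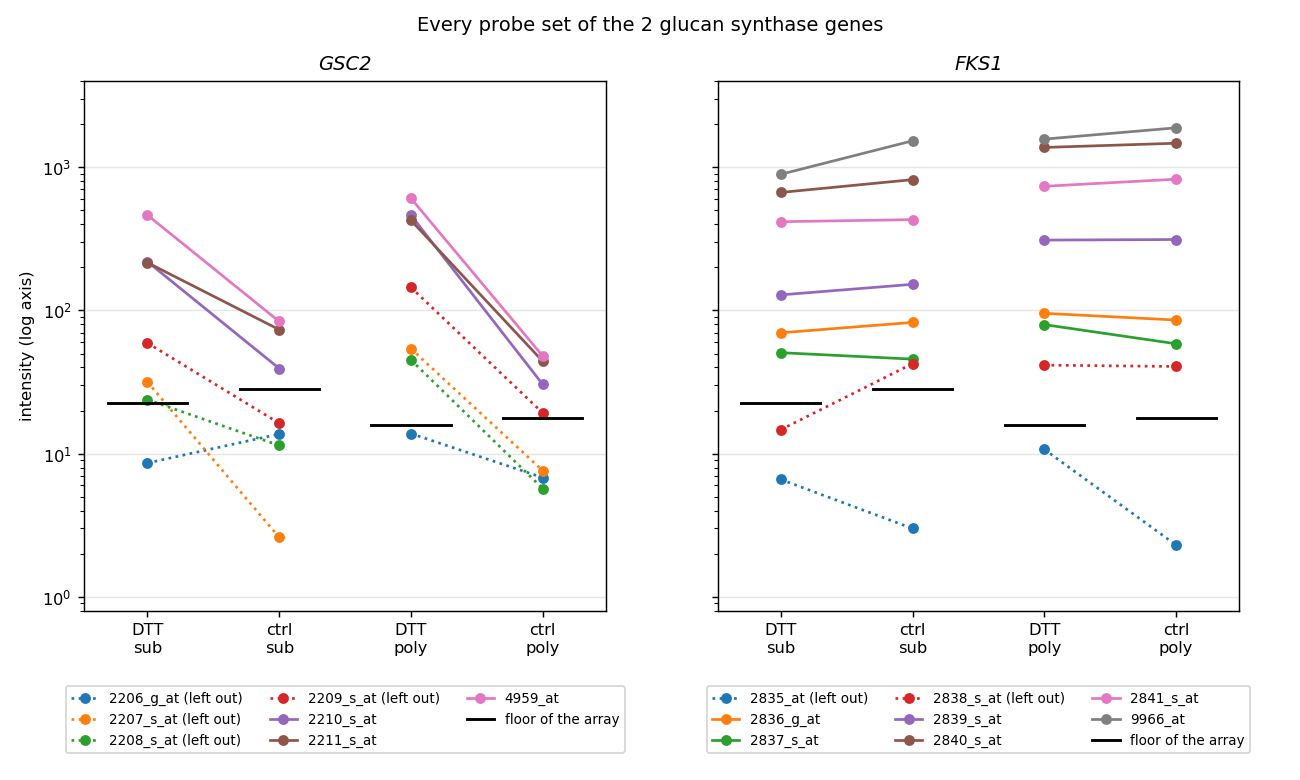
Intensity on a log axis of every probe set of GSC2 (left) and FKS1 (right) in DTT-treated and control RNA of each fraction; dotted lines are probe sets left out for lying below the floor (black bars) on some array. All 3 measured GSC2 sets are higher with DTT in both fractions, while the FKS1 sets run nearly level in polysomal RNA.

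CHS3 encodes the synthase that lays down most of the chitin of the wall. Its intensity was 316.2 in DTT and 155.1 in control sub-polysomal RNA, and 288.4 in DTT and 169.3 in control polysomal RNA. Both DTT values were above both control values. The log2 changes of 0.93 and 0.74 stayed short of 2-fold; the sub-polysomal one passed it under 2 alternatives, with a highest value of 1.17.

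CRH1 and UTR2 encode related transglycosylases that join chitin to glucan, and they went opposite ways. CRH1 had an intensity of 920.9 in DTT and 144.2 in control sub-polysomal RNA, and of 1019.4 in DTT and 404.7 in control polysomal RNA. It was thus 5.95-fold higher with DTT in sub-polysomal RNA (log2 2.57, number 3 from the top of all genes) and 2.47-fold higher in polysomal RNA (1.30, number 98). UTR2 had an intensity of 283.9 in DTT and 627.7 in control sub-polysomal RNA, and of 225.2 in DTT and 551.8 in control polysomal RNA, which made it 2.37-fold and 2.50-fold lower with DTT. The log2 changes of CRH1 exceeded those of UTR2 by 3.82 in sub-polysomal and 2.63 in polysomal RNA, several times the spread between probe sets. Both genes kept their direction and stayed past 2-fold in both fractions under all 8 alternatives. Each has 1 probe set, so the alternatives that change the probe sets per gene could not move it.

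GAS1 and GAS5 encode glucanosyltransferases, held at the membrane by a lipid anchor, that lengthen beta-1,3-glucan chains. GAS5 read 679.4 in DTT and 643 in control sub-polysomal RNA, and 979.5 in DTT and 998.8 in control polysomal RNA. Its log2 changes, -0.022 in sub-polysomal and -0.059 in polysomal RNA, were far inside the spread between probe sets and changed sign under several scalings. GAS1 read 2207.2 in DTT and 3744.7 in control sub-polysomal RNA, and 2710.3 in DTT and 3416.4 in control polysomal RNA. Its changes were -0.86 and -0.36, but under quantile scaling they were 0.038 and 0.12 and under loess scaling -0.0035 and 0.058, so the lower value of GAS1 depends on the scaling.

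The glucan-cutting enzymes had 3 different courses. EXG1, for the main secreted exo-beta-1,3-glucanase, read 394.9 in DTT and 750 in control sub-polysomal RNA, and 327.5 in DTT and 613.3 in control polysomal RNA. It was 2.04-fold lower with DTT in sub-polysomal and 1.91-fold lower in polysomal RNA, and kept that direction under all 8 alternatives, although 5 of them brought the sub-polysomal value inside 2-fold. BGL2, for an abundant wall enzyme that cuts and branches glucan, read 465 in DTT and 388.7 in control sub-polysomal RNA, and 917.9 in DTT and 880.6 in control polysomal RNA. Its changes of 0.16 and 0.029 were smaller than the spread between probe sets.

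EXG2, for a membrane-anchored exo-glucanase, was the 1 member whose changes had opposite signs. It read 53.3 in DTT and 92.9 in control sub-polysomal RNA, and 56.6 in DTT and 40.9 in control polysomal RNA. Of the 4 intensities only the control sub-polysomal one stood clearly above the others. It was 3.29 times the floor of its array, where the DTT polysomal value was 3.56 times its own floor. The log2 changes were -0.90 and 0.44, each short of 2-fold. EXG2 was dim, 2.32 times above the floor at its lowest, and it dropped out with a floor at the 60th percentile.

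**Figure D3:**
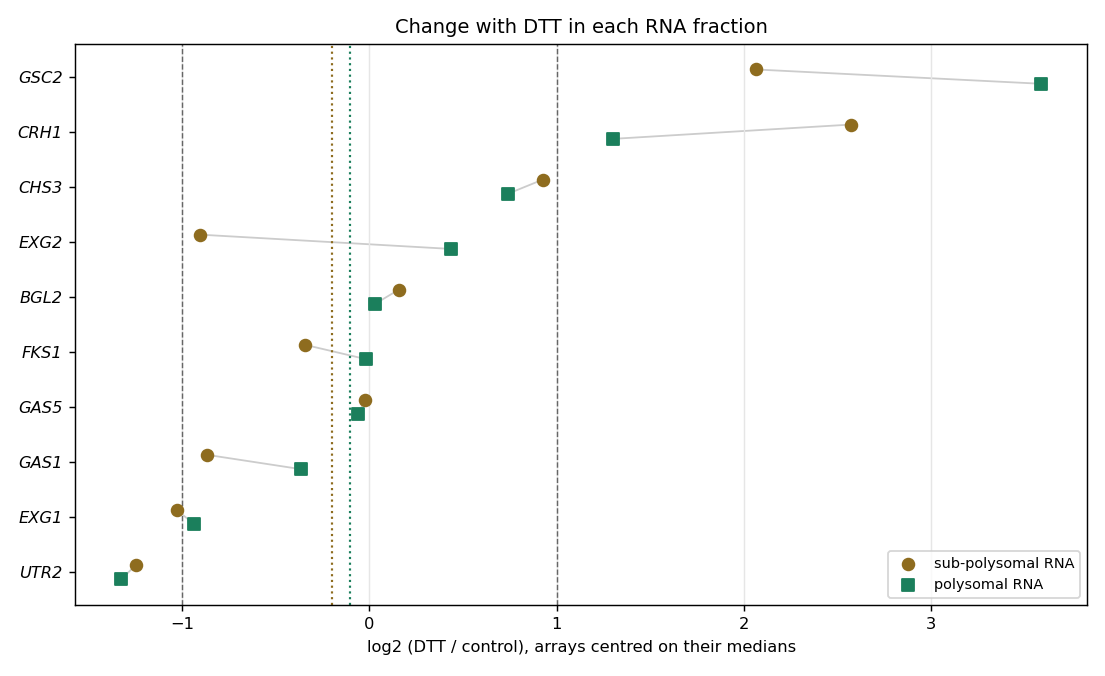
Log2 ratio of DTT to control for each gene in sub-polysomal (circles) and polysomal RNA (squares), 1 array per group. Dotted lines mark the medians of all measured genes (-0.20 and -0.10) and dashed lines the 2-fold limits; GSC2 and CRH1 are past the upper limit in both fractions and UTR2 past the lower.

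The ratio of polysomal to sub-polysomal RNA shows how much of a transcript sat on several ribosomes, relative to the median probe set. In DTT-treated cells 8 of 10 members had a ratio above 0 on the log2 scale, where 54.5% of all genes did, and in control cells 6 of 10, where 48.5% of all genes did. Their median was 0.46 with DTT and 0.17 in control cells, against 0.080 and -0.030 for all genes. Under quantile and loess scaling CRH1 and CHS3 fell below 0 with DTT, so the count above 0 was smaller. The members' median with DTT was then 0.29 and 0.23. With DTT 3 members were at least 2-fold richer in polysomal RNA (4.79% of all genes), namely BGL2, FKS1 and GSC2, and 0 were 2-fold poorer (3.80% of all genes). In control cells CRH1 and BGL2 were 2-fold richer (7.11% of all genes) and EXG2 was 2-fold poorer (6.50%). Without centring, and under quantile and loess scaling, none of the 3 was past 2-fold in DTT-treated cells. The ratio of GSC2 there was 0.63 (log2) by its plain probe set alone, and 0.46 when the floor was raised to the 60th percentile. The control ratio of EXG2 stayed past 2-fold under 3 of 7 alternatives and that of CRH1 under 8 of 8.

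BGL2, FKS1 and GAS5 were on the polysomal side in both treatments. BGL2 was 2.33-fold richer in polysomal RNA with DTT and 2.55-fold in control cells, FKS1 2.12-fold and 1.69-fold, and GAS5 1.70-fold and 1.75-fold. These 3 genes kept a ratio above 0 in both treatments under all 8 alternatives. EXG1 and UTR2 had log2 ratios close to 0 in both treatments (-0.029 and -0.12 for EXG1 with DTT and in control, -0.093 and -0.016 for UTR2), of either sign depending on the scaling. CHS3 stood at 0.11 with DTT and 0.30 in control cells, both of either sign across settings. GAS1 stood at 0.54 with DTT and at 0.038 in control cells, the control value of either sign.

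For 3 members the ratio itself differed between treatments by more than 2-fold. Over all genes 1.99% had a ratio at least 2-fold higher with DTT than in control cells and 1.45% a ratio at least 2-fold lower. GSC2 had a log2 ratio of 1.06 in DTT-treated and -0.47 in control cells, a difference of 1.52 that was number 3 from the top of 3923 genes. Each of its 3 measured probe sets gave a difference between 1.26 and 1.79, and the alternatives gave 1.03 to 1.70. EXG2 had 0.33 with DTT and -1.01 in control, a difference of 1.34 (number 10 from the top). CRH1 went the other way, with 0.39 in DTT-treated and 1.66 in control cells, a difference of -1.27 (number 17 from the bottom); its ratio with DTT was -0.057 under quantile and -0.041 under loess scaling.

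Those 3 differences were past 2-fold under every alternative in which the gene was measured. CRH1 and EXG2 have 1 probe set each, so changing the probe sets per gene could not move them. Before centring, the polysomal intensity of CRH1 was 1.11 times the sub-polysomal one in DTT-treated cells and 2.81 times in control cells, and the sub-polysomal control value was the lowest of its 4. The other 7 members lay within 1 SD between probe sets of the all-gene median of 0.081. The median difference over all 10 members was 0.028. All 3 larger differences use the control sub-polysomal array, and GSC2 and EXG2 were dim in control cells.

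**Figure D4:**
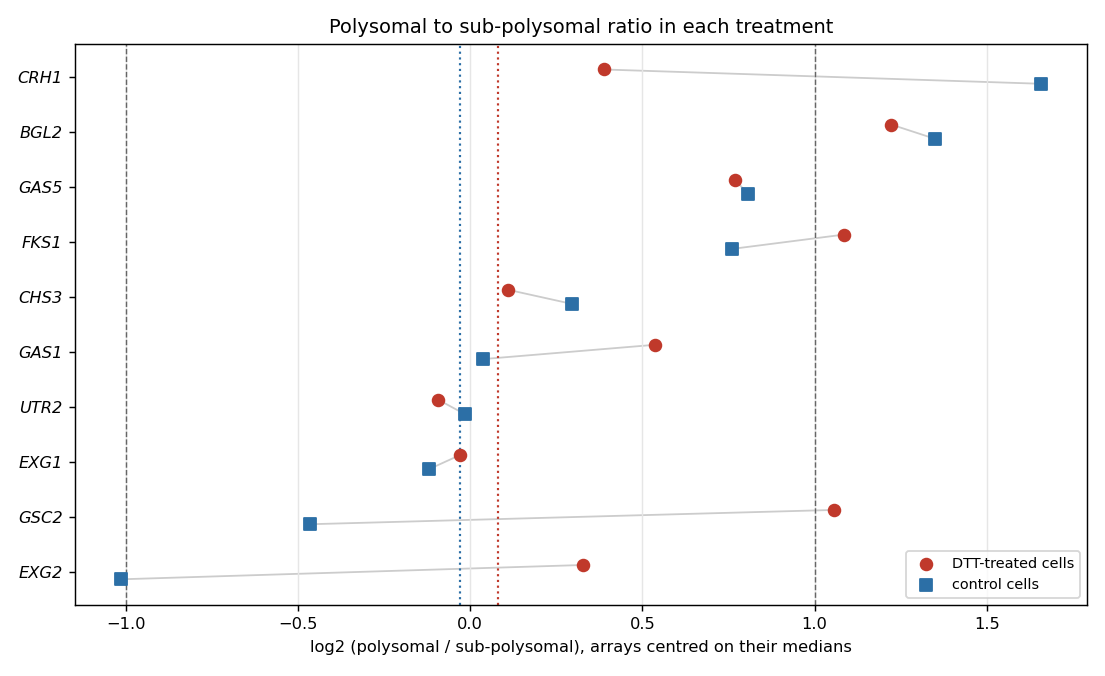
Log2 polysomal over sub-polysomal ratio for each gene in DTT-treated (red circles) and control cells (blue squares), 1 array per group. Dotted lines mark the medians of all measured genes and dashed lines the 2-fold limits; the long grey links are CRH1, GSC2 and EXG2, and the other genes have short ones.

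Among 3922 other measured genes, the 3 whose pattern over the 4 arrays was nearest to that of GSC2, by Euclidean distance after each gene's own mean was removed, were CMK2, NFG1 and YIL060W. CMK2, a calmodulin-dependent kinase gene, was at a distance of 0.62 (log2), with changes with DTT of 2.64 in sub-polysomal and 2.93 in polysomal RNA. NFG1, for a regulator of filamentous growth, was at 0.74, and YIL060W at 0.93. The likeness lay mainly in the rise with DTT. The difference of polysomal ratios between treatments, 1.52 for GSC2, was 0.29 for CMK2, 0.21 for NFG1 and 0.45 for YIL060W. YIL060W is read partly by probe sets that match a family of sequences. CRH1 lay at 1.81 and CHS3 at 2.17 from GSC2, and FKS1 at 3.13.

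Around the 10 enzymes, 4 lists of wall genes held 65 genes, of which 55 were measured. In sub-polysomal RNA 5 of the 55 were at least 2-fold higher and 21 lower with DTT, limits that 5.68% and 11.1% of all measured genes passed. In polysomal RNA 6 were higher and 15 lower (4.33% and 7.04% of all genes), and in both fractions 4 were higher and 14 lower (2.83% and 4.61%). The lists were chosen with earlier results of these data known, so counts beside these shares are description and not a test. Of the 14 genes lower in both, 7 were in the list of wall proteins. The other 7, with the chitinase gene CTS1 among them, were in the list of other glucan synthesis, remodelling and hydrolysis genes. Of the 14, SCW11, CTS1, PIR3 and TIR1 were inside 2-fold in a fraction under some alternatives. With a floor at the 60th percentile SCW11, DSE4, TIR4, PIR3 and PLB2 were not measured.

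In the list for chitin synthesis and delivery of Chs3, all 13 genes were measured and the median change was 0.21 (sub-polysomal) and 0.31 (polysomal). In both fractions 2 were 2-fold higher: CHS7, for the ER protein that lets Chs3 leave the ER, at 1.52 and 1.33, and GFA1, for the first enzyme of the amino sugar route that feeds chitin, at 1.63 and 1.04. The polysomal value of GFA1 was 0.89 under quantile scaling. In sub-polysomal RNA 2 genes of the list were 2-fold lower, CHS6 (-1.07, and -0.26 in polysomal RNA) and BCH2 (-1.02 and -0.054). Their products help carry Chs3 to the surface. Both were inside 2-fold under loess scaling, with no floor and without centring. By the mean of its changes, CHS2, for the chitin synthase of the septum, was lowest with -0.97 and -0.51. CHS2 and CHS6 dropped out with a floor at the 60th percentile. CHS7 read 312.5 in DTT and 101.8 in control sub-polysomal RNA, and 300.7 in DTT and 116.8 in control polysomal RNA. The DTT values of CHS7 were well above the control values in each fraction, as were those of CHS3.

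The beta-1,6-glucan list had 7 of 9 genes measured, with medians of -0.055 in sub-polysomal RNA, of changing sign across the alternatives, and 0.20 in polysomal RNA. By the mean of both changes KEG1, for an ER membrane protein needed for this polymer, was highest at 0.55 and 1.44, and KRE9 lowest at -0.25 and -0.41. KEG1 dropped out with a floor at the 60th percentile. In sub-polysomal RNA alone KRE5, for an ER protein of the same route, was highest at 1.06 (0.46 with no floor) and SKN1 lowest at -0.37.

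The list of other genes for glucan synthesis, remodelling and hydrolysis had 15 of 21 genes measured, and 7 of them were 2-fold lower in both fractions. They were EGT2 (-2.59 in sub-polysomal and -2.31 in polysomal RNA), DSE4 (-1.99 and -1.96), SUN4 (-1.81 and -2.01), GAS3 (-1.79 and -1.74), DSE2 (-1.57 and -1.70), the chitinase gene CTS1 (-1.54 and -1.14) and SCW11 (-1.03 and -1.86). Under loess scaling SCW11 was inside 2-fold in sub-polysomal RNA (-0.93) and CTS1 in polysomal RNA (-0.92). EGT2, DSE2, DSE4, SCW11 and CTS1 are known for cell separation after division. SIM1, of the same family as SUN4, was 3.63-fold and 2.17-fold higher. Not measured were FKS3, none of whose 8 probe sets lay above the floor on all arrays, the sporulation genes GAS2, GAS4, CRR1 and SPR1, and CTS2.

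The list of covalently bound wall proteins had 20 of 22 genes measured, with medians of -1.13 in sub-polysomal and -0.84 in polysomal RNA, below 0 under all alternatives. The sub-polysomal median was -0.53 under quantile and -0.63 under loess scaling. In sub-polysomal RNA 12 of the 20 were at least 2-fold lower (11.1% of all genes) and in polysomal RNA 8 (7.04%); the 12 became 8 under quantile and 7 under loess scaling. In both fractions 7 were lower (4.61% of all genes): PLB2 (-1.91 and -2.44), TIP1 (-2.10 and -1.89), TIR4 (-2.11 and -1.27), PIR1 (-1.64 and -1.62), PST1 (-1.29 and -1.54), PIR3 (-1.13 and -1.45) and TIR1, just past the limit in sub-polysomal RNA (2.00-fold and 2.72-fold lower). Under loess scaling the sub-polysomal changes of PIR3 (-0.76) and TIR1 (-0.65) were inside 2-fold. TIP1, TIR1 and TIR4 are mannoproteins, PIR1 and PIR3 encode proteins bound to beta-1,3-glucan, and PLB2 is a phospholipase gene. YPS1, for a surface protease that trims wall proteins, was the 1 gene of the list 2-fold higher, at 1.54 and 1.92. ER chaperone gene KAR2 had changes of 0.92 and 0.76 on the same arrays. HAC1, the transcription factor gene of the unfolded protein response, had 1.33 and 2.60. SLT2, the kinase gene of the cell wall integrity pathway, had 2.26 and 2.04. It was chosen after its values were seen, and activity of the pathway was not tested.

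**Figure D5:**
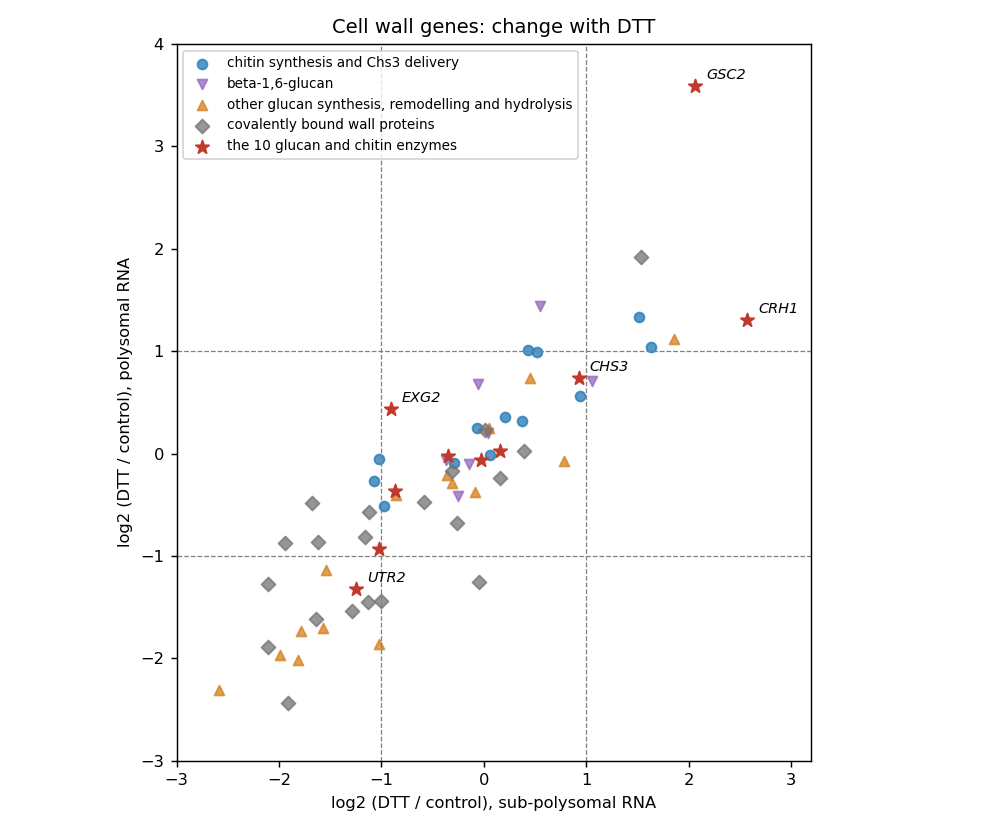
Log2 ratio of DTT to control in sub-polysomal (horizontal) and polysomal RNA (vertical) for the 10 enzymes (red stars) and 55 other measured wall genes by list, 1 array per group; dashed lines are 2-fold limits. GSC2 and CRH1 lie at the upper right, while many wall protein and cell separation genes lie at the lower left.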

How the data were processed

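RNA of 4 samples was measured on 1 Affymetrix YG_S98 array each (chip type per the run sheets, which hold no values per gene). Each probe set has 1 deposited linear intensity per array; judged from the values, the authors scaled every array to 1 trimmed mean (100.1 on each, with 2% left off at either end). How probes were summarised is not given in the sources. With 1 array per group precision cannot be estimated.

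Probe sets naming 1 gene (6504) were matched by gene ID to RefSeq assembly R64, used for names only. Those above every array's 40th percentile were taken to log2, centred per array on their median (4720 probe sets, controls left out), and averaged per gene. Groups follow the sample titles. Genes were counted past 2-fold, with no p-value. The code was tested on simulated data. Python 3.11.15, numpy 2.4.6, pandas 2.3.3 and statsmodels 0.14.6 were used. Alternatives changed the floor, the scaling, the probe sets per gene and the limit.

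The members and lists were chosen with earlier results of these data known. All members are named; from the lists, genes 2-fold changed the same way in both fractions and the highest and lowest of each list by the mean of both changes; CHS6, BCH2, KRE5 and SKN1 were added after their values were seen. KAR2 and HAC1 are given for comparison, and so is SLT2, chosen after its values were seen. Comparisons that share an array are not independent. Motifs planned for promoters, and protein or promoter sequences, were not analysed here.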

Additional observations from a re-analysis of the deposited data

Results flagged for a closer look

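EXG2 stood out because its changes with DTT had opposite signs in the fractions, -0.90 in sub-polysomal and 0.44 in polysomal RNA (log2). Its ratio of polysomal to sub-polysomal RNA likewise had opposite signs, 0.33 in DTT-treated and -1.01 in control cells. The ratio of GSC2 also had opposite signs, 1.06 in DTT-treated and -0.47 in control cells. With 1 array per group these differences were not tested, and the control value of GSC2 turned to 0.20 with no floor. Probe sets of GSC2 left out for lying below the floor still read above it in DTT-treated cells: 31.6 and 54 for 2207_s_at, 23.8 and 45.1 for 2208_s_at, and 59.2 and 144.7 for 2209_s_at, in sub-polysomal and polysomal RNA.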

How the results depend on the processing

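No paired analysis was possible because each group holds 1 array. Of 395 member values under alternatives, 357 moved by less than the SD between probe sets, 38 by more, and 0 past 2-fold turned sign. All members but FKS1 and GSC2 have 1 probe set. For them the alternatives that change the probe sets per gene return the main value, so part of the 357 was fixed in advance. Changes of floor or centring shift all such genes of an array by the same amount. In DTT-treated cells' polysomal ratio the count of members past 2-fold, 3, was 1 with the higher floor (60th percentile). It was 0 without centring, 0 under quantile and 0 under loess scaling. The members' median of that ratio, 0.46, was 0.22 without centring, 0.29 under quantile and 0.23 under loess scaling. With centring on the hybridisation controls it was 0.81. In control cells the count past 2-fold, 3, was 1 under quantile and 1 under loess scaling. At a 1.5-fold limit the counts were 7 for the sub-polysomal and 5 for the polysomal change with DTT and 5 for the control ratio; at a 3-fold limit they were 2, 1 and 1, 0 for the ratio with DTT and 0 for the difference of ratios. The cause was not tested, except that a stricter limit leaves fewer genes. The members' median change with DTT lay between -0.44 and 0.12 in sub-polysomal and between -0.079 and 0.27 in polysomal RNA. The settings also moved the median of all genes: from -0.24 to -0.018 for the sub-polysomal and -0.13 to 0.14 for the polysomal change, and to 0.43 for the ratio with DTT, 0.15 for the control ratio and 0.25 for their difference when centred on the hybridisation controls. Without centring the ratio medians were -0.16 with DTT and -0.20 in control cells. Low signal limits GSC2 and EXG2 in control cells.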
